A study of Mus musculus with 9 samples.

Results

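The genes described here are the 4 adenosine receptors Adora1, Adora2a, Adora2b and Adora3, together with 6 genes that form, carry or remove adenosine: Entpd1, Nt5e, Slc29a1, Slc29a2, Adk and Ada. They were chosen by name and by role, because adenosine receptors are the main targets of caffeine, and all 10 were found among the 48709 genes of the count files. RNA was sequenced from nuclei of frozen mouse hippocampi that had been stained for the neuronal protein NeuN and sorted. There were 3 libraries from WT mice, 3 from Tg4-42 mice and 3 from Tg4-42 mice that drank water with caffeine at 300 mg/l from 2 months of age for 4 months, so that tissue was taken at 6 months. Tg4-42 mice are on a C57BL/6J background, and the murine Thy1 promoter drives human Aβ4-42 fused to the signal peptide of murine thyrotropin-releasing hormone (Trh) in neurons. By the methods of the study, the WT mice were C57BL/6J too. The genotype label of the untreated Tg4-42 libraries reads APP transgenic, while the study describes this line as not overexpressing human APP. The WT and the other Tg4-42 mice drank tap water according to the methods of the study, since the labels name a treatment for the caffeine mice alone. No caffeine-treated WT library was analysed here, so an effect of caffeine could be compared within the transgenic line and not within WT. For the nuclei, the labels state 6 mice in each group and the methods 3, and whether a library pooled animals is not stated. The p-values below measure the spread between these libraries.

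Adenosine is a signal that builds up outside cells when ATP is released and broken down. Entpd1 is an ectoenzyme that cuts ATP and ADP to AMP, and Nt5e, the ecto-5′-nucleotidase, cuts AMP to adenosine. Adora1 and Adora3 couple to inhibitory G proteins and Adora2a and Adora2b to stimulatory ones, and caffeine blocks adenosine receptors without being selective for one of them. The equilibrative carriers Slc29a1 and Slc29a2 let adenosine cross the plasma membrane in either direction, and inside the cell Adk phosphorylates it to AMP while Ada deaminates it to inosine. In the hippocampus, Adora1 is known as the receptor through which adenosine dampens transmitter release at excitatory synapses, whereas Adora2a is best known from neurons of the striatum, and Adk of the adult brain is known mainly from astrocytes.

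The sequences just upstream of 3 receptor genes are printed because these genes lay at opposite ends of the range of levels described below. Each is the 250 bases before a RefSeq start site (GRCm38.p6), for Adora1 the first of 2 start sites, written 5′ to 3′ on the strand of the gene, with every CG pair in capitals. The first window of Adora1, at chr1:134235458-134235707 on the minus strand, held 19 CG pairs.
Adora1: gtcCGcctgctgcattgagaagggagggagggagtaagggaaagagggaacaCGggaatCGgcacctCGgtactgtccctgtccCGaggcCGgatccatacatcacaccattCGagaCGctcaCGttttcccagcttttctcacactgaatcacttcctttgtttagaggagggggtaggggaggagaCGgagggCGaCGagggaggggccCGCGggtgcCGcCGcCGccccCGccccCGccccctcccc
The window of Adora2b, at chr11:62248734-62248983 on the plus strand, held 22 CG pairs.
Adora2b: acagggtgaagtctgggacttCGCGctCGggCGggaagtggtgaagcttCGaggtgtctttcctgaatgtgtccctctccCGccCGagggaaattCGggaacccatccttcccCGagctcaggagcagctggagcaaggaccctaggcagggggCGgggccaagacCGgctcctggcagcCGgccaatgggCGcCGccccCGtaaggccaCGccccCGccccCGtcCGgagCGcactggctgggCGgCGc
The window of Adora3, at chr3:105904171-105904420 on the plus strand, held 0 CG pairs.
Adora3: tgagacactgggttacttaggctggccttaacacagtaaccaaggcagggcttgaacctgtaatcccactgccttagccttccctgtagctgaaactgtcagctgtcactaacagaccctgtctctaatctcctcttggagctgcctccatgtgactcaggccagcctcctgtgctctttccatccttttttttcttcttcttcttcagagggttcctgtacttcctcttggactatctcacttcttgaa

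Across all 32851 windows of this length in the RefSeq table the median was 6 CG pairs, so the Adora1 and Adora2b windows lay above it and the Adora3 window below it. The GC box GGGCGG, read on both strands and with each match also holding a CG pair, was found in 32.7% of all windows. The printed Adora1 window had 3 matches on the reverse strand and 0 on the forward strand, Adora2b had 3 on each strand, and Adora3 had 0. Adora1, with 19 CG pairs, was abundant, whereas Adora2b, with 22, was near the limit of detection in each library. Adora3, with 0 CG pairs, had the lowest mean of the 10 genes in each group. A relation of CG pairs to level was not tested, since these 3 windows were printed for the levels of their genes. The window of the second Adora1 start site, at chr1:134234857-134235106, held 18 CG pairs and 0 matches on either strand. Of the 10 genes, 9 had entries in the table, and Adora2a had none. Nt5e had 21 CG pairs in its window and Slc29a2 had 16.

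The libraries held between 9342945 and 16376922 counts, so 3 reads corresponded to between 0.190 and 0.325 CPM (reads of a gene per 1000000 reads counted) in a library. Replicates differed by more than sampling noise in each group. The transgene was visible in the labelled groups: Trh, whose signal peptide is part of the construct, was at 1.81 to 4.39 CPM in WT, 51.3 to 64.7 CPM in Tg4-42 and 48.0 to 59.7 CPM in caffeine-treated Tg4-42 mice. The summed level of 8 pan-neuronal markers was 6443 CPM or more in each of the 9 libraries, and markers of astrocytes, oligodendrocytes, microglia and endothelial cells were also counted in all of them. The pan-neuronal sums were 8103 to 8321 CPM in WT, 7394 to 9282 CPM in Tg4-42 and 6443 to 7984 CPM with caffeine. All caffeine libraries thus lay below the WT range. Caffeine replicate 1, at 7984 CPM, lay inside the Tg4-42 range, and replicates 2 and 3, at 6871 and 6443 CPM, lay below it. Against Tg4-42, 1 of these markers was higher and 2 were lower at an edgeR unadjusted p under 0.05, beside 17% of all tested genes. The higher one was Rbfox3, with a log2 fold change of 0.28, and the lower ones were Syt1, at -0.44, and Tubb3, at -0.59. Of the 8, 6 had log2 fold changes below 0. Of the 10 adenosine genes, 6 passed edgeR's filter on low counts and were tested among 17361 genes, namely Adora1, Entpd1, Nt5e, Slc29a1, Slc29a2 and Adk. The other 4, Adora2a, Adora2b, Adora3 and Ada, did not pass and are given as counts.

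Adora1 was the most abundant of the 10 genes in all 3 groups. Levels were compared between genes as CPM per kilobase of annotated exon, and on this scale Adora1 averaged 44.7 ± 8.27 in WT, 46.5 ± 2.40 in Tg4-42 and 40.4 ± 4.22 in caffeine-treated Tg4-42 mice (SD, n = 3 each). Its mean over the 9 libraries was higher than that of 94.6% of the 17308 tested genes with a length. Slc29a1 followed with means of 12.2 to 13.9 CPM per kilobase, then Slc29a2 with 9.05 to 11.4 and Adk with 6.56 to 7.17, and the 3 lay above 75.2%, 69.8% and 58.5% of the tested genes. Nt5e came next with 0.792 to 1.26 CPM per kilobase. Neighbours in this order did not overlap between libraries of a group from Adora1 down to Nt5e, except Slc29a1 and Slc29a2 in Tg4-42 mice.

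Below Nt5e the order was not resolved. Entpd1, Ada, Adora2a and Adora2b had means of 0.312 CPM per kilobase or less in each group, and most neighbours among them overlapped. Adora3 had the lowest mean in each group, between 0.0241 and 0.0659 CPM per kilobase. The place of Adk depended on how length was counted. With the longest annotated transcript in place of all annotated exons, an alternative chosen after seeing the data, Adk averaged 13.2 to 14.4 CPM per kilobase against 10.4 to 13.1 for Slc29a2, and the order of the pair turned around in all 3 groups.

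**Figure D1:**
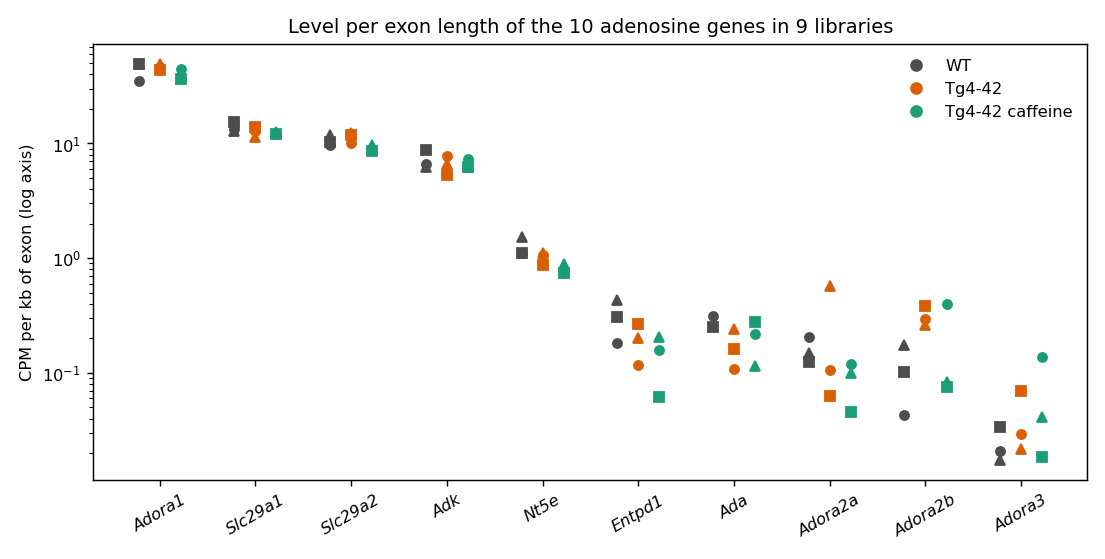
CPM per kilobase of annotated exon (log axis) of the 10 adenosine genes, with 1 point per library and colours for the 3 groups. Adora1 lies highest in all 9 libraries, Slc29a1, Slc29a2 and Adk form the next tier, and the values from Entpd1 down to Adora3 overlap.

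Among the receptors, nearly all of the signal came from Adora1. It made up between 98.3% and 99.6% of the summed CPM per kilobase of the 4 receptors in a library, while the other 3 receptors together had between 5 and 29 reads. Adora1 lies on chromosome 1 from 134199223 to 134235431 (mm10, minus strand), and 20.1% of its exon bases overlap exons of Mybph on the opposite strand. The library kit does not mark strand, but Mybph itself had only 0 to 3 reads per library.

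Adora1 stood at 203, 286 and 286 CPM in the WT libraries, at 269, 255 and 283 CPM in Tg4-42, and at 259, 210 and 232 CPM with caffeine. One WT library lay below all the others of its group and below the whole Tg4-42 range, and the caffeine group overlapped both other groups. The log2 fold change was -0.20 for caffeine-treated over untreated Tg4-42 mice, with a standard error (SE) of 0.14 and a 95% interval from -0.50 to 0.10 (adjusted p = 0.50, edgeR quasi-likelihood test). For Tg4-42 over WT it was 0.06 with an interval from -0.24 to 0.36 (edgeR adjusted p = 1.00), and this value turned to -0.09 without the low WT library. For caffeine-treated Tg4-42 over WT it was -0.14 with an interval from -0.45 to 0.16 (edgeR adjusted p = 0.662). The 3 intervals do not reach 1 log2 unit in either direction.

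Adora2a, Adora2b and Adora3 were near the limit of detection. Adora2a had 8, 6 and 7 reads in WT, 3, 3 and 22 in Tg4-42, and 5, 2 and 4 with caffeine. A single Tg4-42 library, replicate 3, held more Adora2a reads than the other 2 of its group together, at 1.77 CPM against 0.325 and 0.193 CPM. In that same library the 10 striatal projection neuron markers summed to 355 CPM and the 8 inhibitory neuron markers to 1477 CPM, the highest of the 9 libraries for both lists. It was also the highest for the pan-neuronal, oligodendrocyte and oligodendrocyte precursor lists, at 9282, 473 and 12.1 CPM. The striatal markers Drd2, Isl1 and Six3 had 8, 5 and 0 reads there and were highest in Tg4-42 replicate 2, with 29, 70 and 4 reads, a library with 3 Adora2a reads. The part of these cell types in the Adora2a value was not tested. In bulk libraries, fewer cells of a type and less RNA per cell cannot be told apart.

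Adora2b, which is known to need more adenosine than the other receptors, had 1, 3 and 5 reads in WT, 5, 11 and 6 in Tg4-42, and 10, 2 and 2 with caffeine. After scaling for depth, the Tg4-42 libraries lay between 0.482 and 0.706 CPM and above the WT libraries, which lay between 0.0785 and 0.323 CPM. The caffeine libraries spanned both ranges, from 0.138 to 0.735 CPM. Adora3 had 1, 2 and 1 reads in WT, 1, 4 and 1 in Tg4-42, and 7, 1 and 2 with caffeine. Its values are uncertain in a further way, since 20.9% of its exon bases are shared with Tmigd3 on the same strand, a gene with 3 to 10 reads per library.

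**Figure D2:**
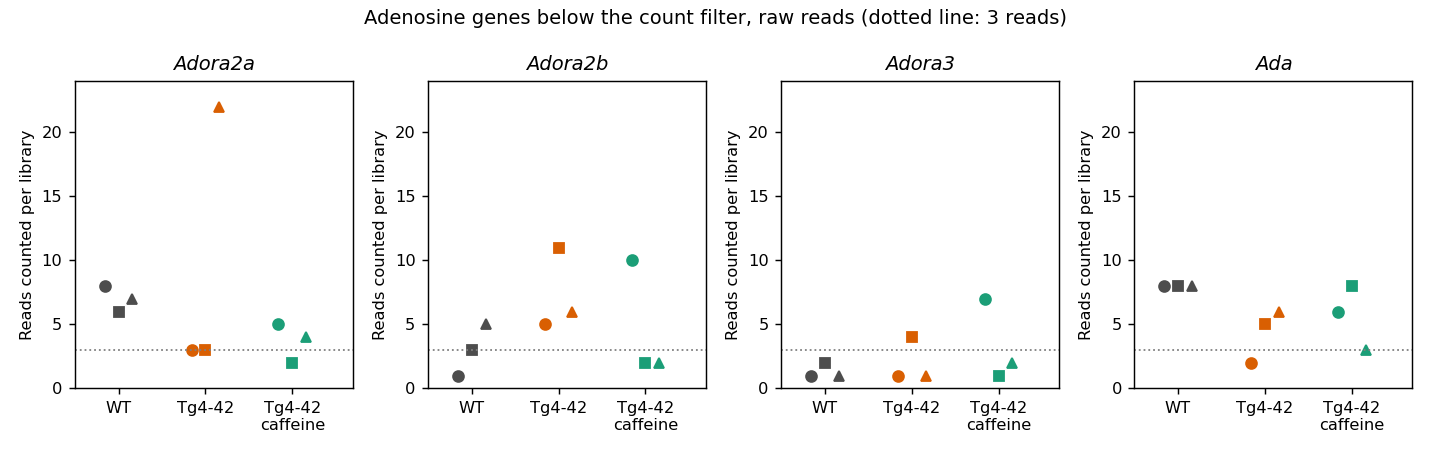
Raw reads per library of Adora2a, Adora2b, Adora3 and Ada, with circles, squares and triangles for replicates 1, 2 and 3 of each group and a dotted line at 3 reads. The highest point is the 22 Adora2a reads of a single Tg4-42 library, and 11 reads is the highest value of any other point.

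The enzymes that form adenosine outside cells had their lowest means in the caffeine group, and neither passed the test. Nt5e stood at 9.57, 9.60 and 13.3 CPM in WT, at 9.09, 7.51 and 9.64 CPM in Tg4-42, and at 6.40, 6.36 and 7.69 CPM with caffeine. All 3 caffeine libraries lay below all 3 WT libraries, and the Tg4-42 libraries overlapped both groups. Nt5e averaged 10.8 ± 2.12 CPM in WT, 8.75 ± 1.11 CPM in Tg4-42 and 6.81 ± 0.756 CPM with caffeine (SD, n = 3 each). The level with caffeine was 0.630 times that of WT, a log2 fold change of -0.67 with an SE of 0.21 and an interval from -1.11 to -0.23, which did not pass (edgeR unadjusted p = 0.00544, adjusted p = 0.145). Against untreated Tg4-42 mice it was -0.36 (SE 0.21, interval -0.80 to 0.09, edgeR adjusted p = 0.415), and for Tg4-42 over WT it was -0.31 (SE 0.21, interval -0.75 to 0.13, edgeR adjusted p = 1.00). These 3 values are not independent, since each pair of comparisons shares a group.

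Sequencing lane was balanced over the groups, with replicates 1 and 2 of each on lane 6 and replicate 3 on lane 7. Within lane 6, the log2(CPM + 0.5) of Nt5e was lower with caffeine than in WT by a difference of -0.55, and within lane 7, with 1 library per group, the difference was -0.75. Against untreated Tg4-42 the within-lane differences of Nt5e were -0.35 and -0.31.

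Entpd1 was counted with few reads, and its values varied more between libraries of a group. It stood at 1.02, 1.71 and 2.39 CPM in WT, at 0.649, 1.48 and 1.12 CPM in Tg4-42, and at 0.882, 0.346 and 1.15 CPM with caffeine. The ranges of all 3 groups overlapped. The log2 fold change with caffeine against WT was -1.12 (SE 0.48, interval -2.14 to -0.10, edgeR unadjusted p = 0.0330, adjusted p = 0.275). It was -0.50 against untreated Tg4-42 mice, with an interval from -1.57 to 0.57, and -0.62 for Tg4-42 over WT, with an interval from -1.61 to 0.37. At 5 to 37 reads per library, Entpd1 had the widest intervals of the 6 tested genes. Entpd1 is known from microglia and endothelial cells, cell types that a sort on NeuN would remove and whose markers were still counted. Their summed markers are given below, and the part of these cells in the values of Entpd1 was not tested.

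The 2 equilibrative carriers had between 282 and 980 reads per library. Slc29a2 stood at 29.1, 31.4 and 36.1 CPM in WT, at 30.5, 35.6 and 37.0 CPM in Tg4-42, and at 26.8, 26.1 and 29.0 CPM with caffeine. The highest caffeine library lay just under the lowest WT library, 29.0 against 29.1 CPM, and under the lowest Tg4-42 library at 30.5 CPM. On this scale the caffeine group overlapped neither of the others. The same caffeine library lay above that WT library with RLE scaling, 29.21 against 29.10 CPM, and with plain totals, 30.16 against 29.24 CPM. With plain totals it lay just under the lowest Tg4-42 library, at 30.18 CPM. The separation from WT thus depended on the scaling. The mean was 0.795 times that of untreated Tg4-42 mice, a log2 fold change of -0.33 with an SE of 0.14 and an interval from -0.63 to -0.04, which did not pass after adjustment (edgeR unadjusted p = 0.0293, adjusted p = 0.237). The within-lane differences in log2(CPM + 0.5) were -0.31 on lane 6 and -0.35 on lane 7. Against WT the log2 fold change of Slc29a2 was -0.24 (interval -0.53 to 0.06, edgeR adjusted p = 0.427), and for Tg4-42 over WT it was 0.10 (interval -0.20 to 0.39, edgeR adjusted p = 1.00).

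Slc29a1 stood at 53.4, 61.9 and 51.2 CPM in WT, at 51.8, 56.3 and 45.7 CPM in Tg4-42, and at 48.0, 48.7 and 50.1 CPM with caffeine. The caffeine libraries were close together, below all WT libraries and inside the Tg4-42 range. With plain library totals, the highest caffeine library, at 52.2 CPM, lay above the lowest WT library, at 50.2 CPM. The log2 fold change was -0.07 with caffeine against untreated Tg4-42 mice (interval -0.33 to 0.20), -0.18 against WT (interval -0.44 to 0.08) and -0.11 for Tg4-42 over WT (interval -0.38 to 0.15), and the lowest of the 3 edgeR adjusted p-values was 0.504. The value against untreated Tg4-42 mice turned to 0.01 without Tg4-42 replicate 2. Of the exon bases of Slc29a1, 6.9% overlap Gm17080 on the opposite strand, which had 1 to 7 reads per library.

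Of the enzymes that remove adenosine inside cells, Adk was far more abundant than Ada. Adk stood at 56.1, 74.5 and 52.8 CPM in WT, at 65.9, 45.4 and 56.5 CPM in Tg4-42, and at 62.0, 53.2 and 52.7 CPM with caffeine. The 3 groups overlapped, with means of 61.1, 55.9 and 56.0 CPM. Between caffeine-treated and untreated Tg4-42 mice the log2 fold change of Adk was 0.01, with an interval from -0.33 to 0.34 (edgeR adjusted p = 0.990). It was -0.13 for Tg4-42 over WT (interval -0.47 to 0.20) and -0.13 for caffeine-treated Tg4-42 over WT (interval -0.46 to 0.21), and both turned to 0.04 without WT replicate 2, the highest Adk library. Ada had 8 reads in each WT library, 2, 5 and 6 in Tg4-42, and 6, 8 and 3 with caffeine. Scaled for depth, the WT libraries lay between 0.505 and 0.628 CPM, just above the Tg4-42 libraries at 0.216 to 0.482 CPM.

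**Figure D3:**
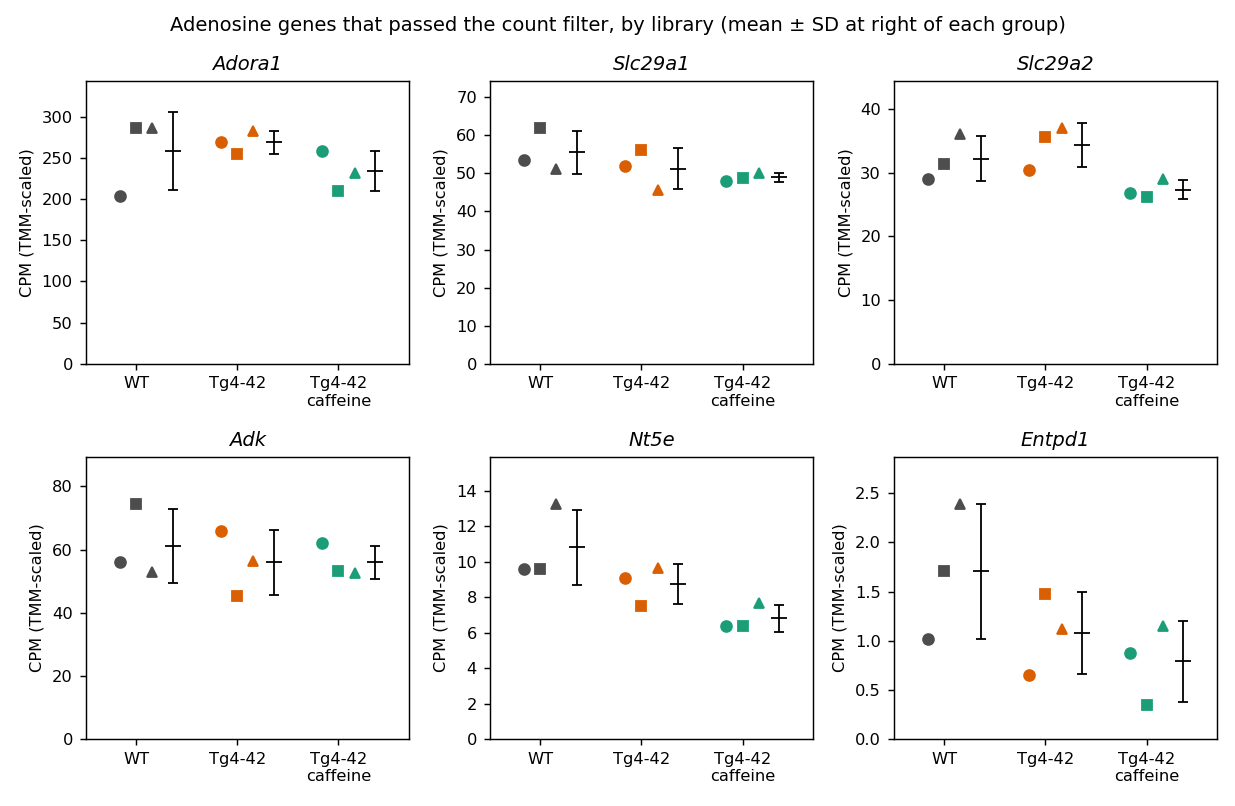
CPM per library (linear axes from 0) of the 6 adenosine genes that passed the filter, with circles, squares and triangles for replicates 1, 2 and 3 and the mean ± SD at the right of each group (n = 3). The caffeine points of Slc29a2 lie below those of both other groups, those of Nt5e and Slc29a1 lie below the WT points, and the groups of Adora1, Adk and Entpd1 overlap. CPM here are TMM-scaled, and the separation of Slc29a1 and Slc29a2 from WT was lost with plain totals.

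None of the 6 tested adenosine genes passed an adjusted p of 0.05 in any comparison. Between caffeine-treated and untreated Tg4-42 mice, 0 of 6 were called by edgeR, against 153 genes or 0.881% of all tested. At an unadjusted p under 0.05 there was 1 of 6, Slc29a2, against 17% of all tested genes, and limma-voom also called 0 of the 6. DESeq2 called 0 of 5, and gave Entpd1 no adjusted p in this comparison. In this comparison 1 of 6, again Slc29a2, had groups that did not overlap, against 23% of all tested genes and 12.6% of them with the caffeine group lower. The median log2 fold change of the 6 genes was -0.27 and that of all tested genes -0.01, with 5 of 6 below 0 against 51.5% of all. None of the 4 genes below the filter had groups that did not overlap here, against 12.4% of the 4325 genes below the filter with 15 or more reads in all.

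Between Tg4-42 and WT mice, 0 of 6 were called, against 17 genes or 0.0979% of all tested, and 0 of 6 had an unadjusted p under 0.05, against 2.74%. No tested member had groups that did not overlap, against 6.73% of all. Among the 4 genes below the filter, Adora2b and Ada had groups that did not overlap, the first higher and the second lower in Tg4-42, against 10% of such genes. The exact permutation p was 0.1 for both, which is the smallest that 3 against 3 libraries can give. The median log2 fold change of the 6 tested genes was -0.12, with 4 of 6 below 0 against 49.5% of all.

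Between caffeine-treated Tg4-42 and WT mice, 0 of 6 were called, against 72 genes or 0.415% of all tested. At an unadjusted p under 0.05 there were 2 of 6, Nt5e and Entpd1, against 15.4% of all tested genes. Groups did not overlap for 3 of 6, Nt5e, Slc29a1 and Slc29a2, all lower with caffeine. Among all tested genes the share was 18.8%, and 9.67% in that direction. The count of 3 held for the main scaling only. With RLE scaling Slc29a2 overlapped WT, and with plain library totals Slc29a1 and Slc29a2 both did, while Nt5e did not. Of the genes below the filter, Adora2a did not overlap between these groups, with 2 to 5 reads against 6 to 8, beside 11.3% of genes below the filter. With plain totals the Adora2a groups overlapped, at up to 0.3670 CPM with caffeine against 0.3664 CPM in WT replicate 2. All 6 log2 fold changes were below 0, with a median of -0.21, against 51.5% of all tested genes below 0. The differences for Nt5e and Slc29a2 kept their direction in the 3 comparisons when any single library was left out.

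**Figure D4:**
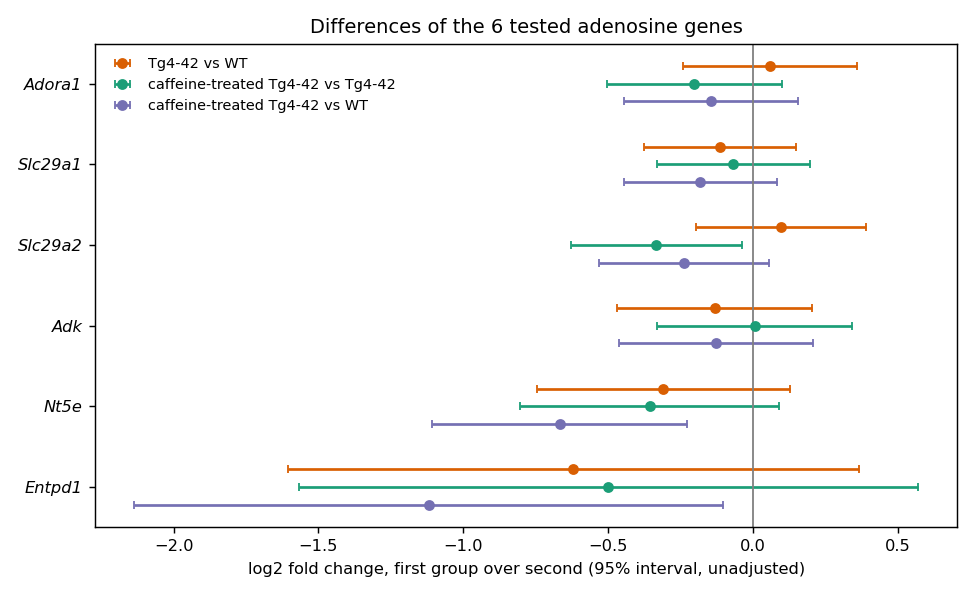
Log2 fold changes of the 6 tested adenosine genes in 3 comparisons, as points with unadjusted 95% intervals from the edgeR fit. The intervals of Nt5e and Entpd1 with caffeine against WT and that of Slc29a2 with caffeine against untreated Tg4-42 exclude 0, and none of the 3 values had an adjusted p under 0.05.

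The wider adenosine pathway gave no called gene either, where at most 0.881% of all tested genes were called in any comparison. Of 33 further enzymes and carriers of adenosine and AMP, 23 were tested. With caffeine against untreated Tg4-42 mice, 3 were higher and 2 lower at an unadjusted p under 0.05, beside 17% of all tested genes past that limit in either direction. The gene with the lowest p was Ahcyl2, a relative of the S-adenosylhomocysteine hydrolases, with 544 to 711 CPM with caffeine, 286 to 443 CPM in Tg4-42 and 328 to 391 CPM in WT. Both differences of Ahcyl2 missed the threshold, at log2 fold changes of 0.66 against Tg4-42 (SE 0.16, edgeR adjusted p = 0.0723) and 0.79 against WT (SE 0.17, edgeR adjusted p = 0.0509). The adenylate kinase Ak5 stood at 198 to 234 CPM with caffeine against 141 to 172 CPM in Tg4-42, a log2 fold change of 0.43 (edgeR adjusted p = 0.109), and the cytosolic nucleotidase Nt5c had a log2 fold change of 0.34 (edgeR adjusted p = 0.240).

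The 2 genes of this list that were lower at an unadjusted p under 0.05, Entpd3 and Entpd2, are relatives of Entpd1 that also cut nucleotides outside cells. Entpd3 stood at 9.20 to 19.1 CPM with caffeine against 19.3 to 29.3 CPM in Tg4-42, a log2 fold change of -0.82 (SE 0.23, edgeR adjusted p = 0.0951). Entpd2, with 6 to 10 reads against 14 to 21, had a log2 fold change of -1.34 (SE 0.45, edgeR adjusted p = 0.146). In the same list the carriers related to Slc29a1 and Slc29a2 also missed the threshold: Slc29a3 had a log2 fold change of 0.51 for Tg4-42 over WT (edgeR adjusted p = 1.00), and Slc29a4 one of 0.62 for caffeine-treated Tg4-42 over WT (edgeR adjusted p = 0.298). Against WT, Ak5 was at 0.35 (edgeR adjusted p = 0.206) and Entpd3 at -0.57 (edgeR adjusted p = 0.248) on the log2 scale.

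Of 10 genes for the release of ATP, 6 were tested and 0 were called in each comparison, where at most 0.881% of all tested genes were called. At an unadjusted p under 0.05, 0 were higher and 2 lower with caffeine, both against Tg4-42 and against WT. Of all tested genes, 17% and 15.4% passed that limit in these 2 comparisons. The connexin Gja1, an astrocyte gap junction protein, had a log2 fold change of -0.80 with caffeine against Tg4-42 (SE 0.25, edgeR adjusted p = 0.124) and -0.77 against WT (edgeR adjusted p = 0.156), and the channel gene Calhm2 had -0.61 (edgeR adjusted p = 0.183) and -0.62 (edgeR adjusted p = 0.201). Of 15 purinergic P2 receptors, which bind nucleotides and not adenosine, 10 were tested and 0 were called. At an unadjusted p under 0.05, 1 was higher and 1 lower with caffeine in each of the same 2 comparisons, beside the same shares. For Tg4-42 over WT, 1 was higher and 0 lower, beside 2.74% of all tested genes. P2ry14 had log2 fold changes of 0.46 (edgeR adjusted p = 0.172) and 0.55 (edgeR adjusted p = 0.127) with caffeine against Tg4-42 and against WT. P2ry6 was at -0.92 against Tg4-42 (edgeR adjusted p = 0.289), P2rx3 at -1.11 against WT (edgeR adjusted p = 0.264) and P2ry13 at 0.75 for Tg4-42 over WT (edgeR adjusted p = 1.00).

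All 20 genes of the G proteins and regulators through which adenosine receptors signal were tested, and 0 were called. Of all tested genes, at most 0.881% were called in any comparison. At an unadjusted p under 0.05, 1 was higher and 2 lower with caffeine against untreated Tg4-42, beside 17% of all tested genes in either direction. The numbers were the same against WT, beside 15.4% of all tested genes. With caffeine against untreated Tg4-42 mice, Gnaq, a G protein alpha subunit, had a log2 fold change of 0.34 (edgeR adjusted p = 0.188), the gamma subunit Gng4 one of -0.54 (edgeR adjusted p = 0.268), and Rgs4, which speeds the turning off of G proteins, one of -0.65 (edgeR adjusted p = 0.233). The same 3 genes had values of 0.38, -0.60 and -0.59 against WT, with edgeR adjusted p-values of 0.165, 0.243 and 0.303. In this list, 0 genes had an unadjusted p under 0.05 for Tg4-42 over WT, against 2.74% of all tested genes.

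Summed markers of several cell types did not overlap between caffeine-treated and untreated Tg4-42 mice. Neither did 23% of all tested genes, a share of single genes and not of sums. In this comparison, 1241 of the 17361 tested genes were higher and 1705 lower at an unadjusted p under 0.05, and 0.881% were called. Of 11 dentate granule cell markers, all tested, 1 rose with caffeine against Tg4-42 (Plk5) and 8 were higher at an unadjusted p under 0.05, with sums of 1292 to 1570 CPM against 861 to 1266 CPM. The 8 include Dsp and Prox1, which the study had already reported as upregulated by caffeine from these same data. This count is therefore not independent of that report. Of 8 inhibitory neuron markers, 1 fell (Slc32a1, the vesicular carrier of GABA) and 7 were lower at an unadjusted p under 0.05, with sums of 710 to 884 CPM against 943 to 1477 CPM. The 12 microglial markers summed to 56.0 to 65.4 CPM with caffeine, 68.9 to 99.7 CPM in Tg4-42 and 59.9 to 92.6 CPM in WT, and all 11 tested had log2 fold changes below 0 against Tg4-42, 4 of them with an unadjusted p under 0.05 and 0 called. The 8 endothelial markers, of which 2 were tested, summed to 33.2 to 45.6 CPM with caffeine, 53.5 to 56.9 CPM in Tg4-42 and 47.8 to 62.2 CPM in WT.

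The 9 astrocyte markers summed to 352 to 469 CPM with caffeine, 440 to 575 CPM in Tg4-42 and 438 to 577 CPM in WT, with 5 lower against Tg4-42 at an unadjusted p under 0.05, and Gja1 belongs to this list too. Against Tg4-42, 8 of these 9 markers had log2 fold changes below 0, and Slc1a3 had 0.05. Adk, known mainly from astrocytes in the adult brain, had 0.01 in that comparison, and the part of astrocytes in its reads was not tested. The 8 oligodendrocyte markers summed to 238 to 344 CPM with caffeine and 340 to 473 CPM in Tg4-42, and the 10 striatal projection neuron markers to 206 to 261 CPM and 269 to 355 CPM. Lists of 7 markers each for excitatory neurons and for the hippocampal fields CA1, CA2 and CA3 had 0 genes called between caffeine-treated and untreated Tg4-42 mice, with sums of 1368 to 1607 against 1460 to 1544 CPM, 495 to 524 against 543 to 654 CPM, 251 to 294 against 220 to 262 CPM and 340 to 439 against 390 to 403 CPM. Of these lists, CA1 alone had sums that did not overlap, lower with caffeine. Between caffeine-treated Tg4-42 and WT mice, the CA1 marker Wfs1 fell by 0.77 on the log2 scale and the excitatory marker Neurod2 rose by 0.88 (edgeR adjusted p = 0.0408 for both). The 5 markers of oligodendrocyte precursors summed to 5.77 to 7.94 against 6.28 to 12.1 CPM. None of the markers in all these lists was at 0 in all libraries of a group, except 1 endothelial marker in WT. The part of the mix of nuclei in the values of Nt5e, Entpd1 and Slc29a2 was not tested.

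**Figure D5:**
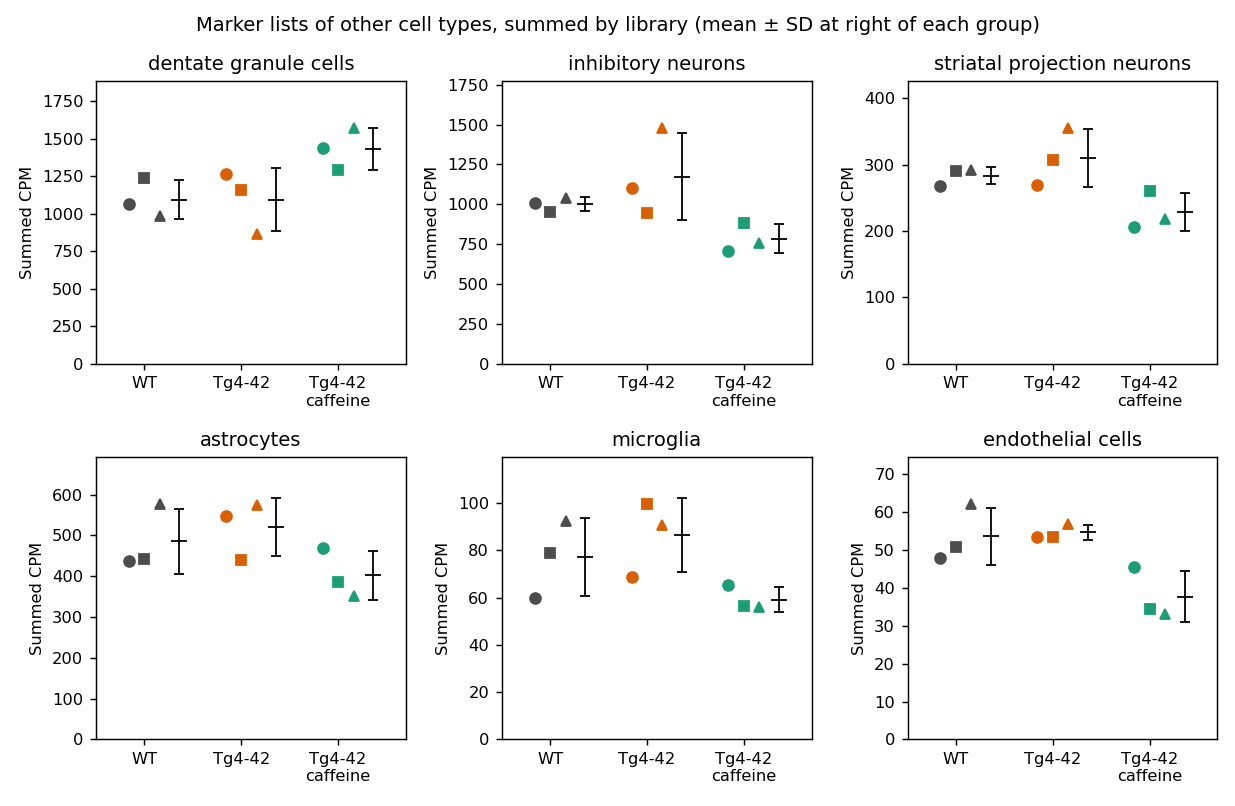
Summed CPM per library (linear axes from 0) of 6 marker lists, with circles, squares and triangles for replicates 1, 2 and 3 and the mean ± SD at the right of each group (n = 3). The caffeine libraries lie above the other groups for dentate granule cell markers and below them for inhibitory neuron, striatal projection neuron and endothelial markers, while those of astrocytes and microglia overlap WT.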

How the data were processed

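RNA of sorted NeuN-stained nuclei was sequenced as single-end 50-base reads. The authors aligned them to mm10 (GRCm38) and deposited raw counts of reads on the exons of each gene, without normalization; the strand setting of the counting is not given in the sources used here, and the sample labels gave the groups. Symbols, positions and exon lengths came from GENCODE M21, which named 48349 of the 48709 genes, and upstream windows from RefSeq. In R 4.3.3, genes were kept by edgeR 4.0.16's filter (minimum count 10, total 15), scaled by TMM and tested with the quasi-likelihood method in a model of all 9 libraries, with Benjamini-Hochberg adjustment at 0.05. CPM used TMM-scaled totals of the tested genes, and the exact permutation tests were two-sided on log2(CPM + 0.5).

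The members and all gene lists were chosen with earlier results of these data known. The text names all 10 members, up to 5 genes per pathway list and comparison with the lowest unadjusted p under 0.05, marker lists as counts and sums, and the 3 genes most correlated with each tested member. Mybph, Tmigd3, Gm17080, Trh, Rbfox3, Syt1, Tubb3, Drd2, Isl1, Six3, Plk5, Dsp, Prox1, Slc32a1, Slc1a3, Wfs1 and Neurod2 are named beyond this rule, with their values already known. Of the listed symbols, 2 were not matched in the files.

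Replicates were numbered in accession order. Residuals of the libraries with the same number correlated at 0.188, 0.138 and 0.156 between Tg4-42 and WT, but not throughout in the other comparisons (-0.17 to 0.18), and the labels state no pairing. Alternatives were DESeq2 1.42.0, RLE scaling, a replicate block, the sequencing lane, a fit of the compared groups alone, no filter on low counts or one at 50 counts on average, limma-voom (limma 3.58.1) with quality weights, plain totals for CPM, and leaving out each library. Each used all libraries unless stated. Counting error was the limit for genes with few reads, with a floor of 3 counts.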

Additional observations from a re-analysis of the deposited data

How the results depend on the processing

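In each comparison, 0 adenosine genes were called under any alternative or without any single library. Of 249 log2 fold changes of the 6 tested genes under the alternatives, 243 kept their direction and their side of the threshold and 6 turned, although DESeq2 gave Entpd1 no adjusted p in the 2 comparisons with caffeine. Between caffeine-treated and untreated Tg4-42 mice, leaving out single libraries gave -0.12 to 0.14 for Adk, which was below 0 without caffeine replicate 1 (-0.07) or Tg4-42 replicate 2 (-0.12), and -0.13 to 0.014 for Slc29a1, which was above 0 without Tg4-42 replicate 2. Between Tg4-42 and WT it gave -0.089 to 0.14 for Adora1, below 0 without WT replicate 1, and -0.27 to 0.035 for Adk, and between caffeine-treated Tg4-42 and WT -0.22 to 0.041 for Adk, both above 0 without WT replicate 2. With all libraries, the log2 fold changes that turned in these fits lay between -0.13 and 0.06, and that of Adk with caffeine against untreated Tg4-42 turned in 2 fits. The adjusted p ranged from 0.0654 to 0.178 over the other alternatives and up to 0.458 when single libraries were left out for Nt5e between caffeine-treated Tg4-42 and WT mice, and from 0.148 to 0.429 and up to 0.588 for Slc29a2 between caffeine-treated and untreated Tg4-42 mice.

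The background of called genes moved far more. Between caffeine-treated and untreated Tg4-42 mice, 153 genes became 751 with DESeq2, 987 with no filter, 587 with limma-voom and 9 with the lane as a covariate. The share that was higher went from 37 of 153 to 283 of 751 with DESeq2 and 357 of 987 with no filter. Between Tg4-42 and WT, 17 became 74 with no filter. Between caffeine-treated Tg4-42 and WT, 72 became 553 with DESeq2, 860 with no filter, 125 with limma-voom and 42 with the lane. Leaving out single libraries gave 0 to 341, 14 to 18 and 16 to 287 genes in the 3 comparisons. In the first, 0 were left without Tg4-42 replicate 3 or without caffeine replicate 3, 3 without Tg4-42 replicate 1, 58 without caffeine replicate 2 and 341 without caffeine replicate 1. In the third, the counts were 287 and 16 without caffeine replicates 1 and 3, and 42, 23 and 28 without WT replicates 1, 2 and 3. The cause was not tested. A replicate block gave 187, 16 and 82 genes with 0 adenosine genes in each, and it changed no call of an adenosine gene.

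Of 60 group means in CPM under other scalings, 59 moved by less than 1 SD, and Slc29a1 with caffeine became 50.2 with plain totals. The separation of caffeine-treated Tg4-42 from WT libraries was lost for Slc29a2 with RLE scaling and with plain totals. For Slc29a1 and Adora2a it was lost with plain totals. Per kilobase of the longest transcript, 16 of 30 means moved by more than 1 SD. Adora2a, Adora2b, Adora3 and Ada, with 1 to 22 reads per library, were not called by edgeR with no filter, with a lowest adjusted p of 0.328 for Adora2a between caffeine-treated and untreated Tg4-42 mice.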

Other observations

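The adenosine genes did not all vary together over the 9 libraries. Correlations of log CPM between pairs of the 6 tested genes ranged from -0.25 for Adk with Slc29a2 to 0.71 for Entpd1 with Slc29a2, and Nt5e correlated at 0.69 with Entpd1 and at 0.68 with Slc29a2. The points share libraries, depth and group, so these values are a description.

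The tested genes whose log CPM most resembled that of a member were picked out of all tested genes, with Pearson's r over 9 libraries. For Adora1 they were Ebp, a sterol isomerase (r = 0.949), Gm13306 (0.943) and Ephx4 (0.943). For Nt5e they were Ppp1r42 (0.974), Gm15265 (0.945) and Pgd (0.932), and for Entpd1 Tfcp2 (0.952), Ap2a1 (0.944) and Ccdc137 (0.915). For Slc29a2 they were Fam43a (0.970), Atp6v0a1 (0.955) and Slc22a4 (0.943), and for Slc29a1 Snd1 (0.923), Tmem230 (0.920) and Gm3696 (0.881). For Adk they were Znhit3 (0.943), Zc3h10 (0.942) and Pfdn5 (0.939). They are the highest of 17361 candidates, and the points again share libraries, depth and group. After removal of the group means, r was between 0.849 and 0.949 for these 18 pairs.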
